A study of Mus musculus with 24 samples.

Results

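In the kidney of a female mouse of the 129S1 x Cast/Ei F1 cross, 84 genes gave almost all of their allelic counts to the same parental column of the count table, named paternal. They were chosen by allelic imbalance (AI), which is the share of a gene's allelic counts that lies in the maternal column. AI pooled over 6 libraries had to be at most 0.1 in each of 3 sets of kidney libraries, with at least 100 pooled counts in each set. Of 37315 genes in the tables, 10086 reached 100 pooled counts in every set and 92 of these met the AI limit. Of the 92, 8 were left out by symbol. Of the 84, 1 is listed by its identifier alone, without a symbol. The kidney AI of the 84 genes was used to choose them and is given below as a description, with no test.

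All kidney libraries were made from aliquots of a single preparation of total RNA from 1 adult animal (left kidney, strain 129S1/SvImJ x CAST/EiJ F1, labelled as control), so that they are technical replicates. The sets are NEBNext_100ng (NEBNext Ultra kit, 100 ng of RNA), SMARTseq_10ng (SMARTseq v4 kit, 10 ng) and SMARTseq_100pg (the same kit, 100 pg), with 6 libraries each. Abl.1 and Abl.2 are clonal lines of Abelson virus-transformed B-lineage cells from the same cross, labelled immortalised B cells, female and control, with 2 SMARTseq v4 libraries each from 10 ng of RNA and with 1 clone standing for each line. The kidney reads were single-end and the clone reads paired-end, from another sequencer and site. Tissue, read layout and sequencing therefore cannot be told apart between kidney and clones. The parent held by each column may differ between them as well (see the imprinted genes below).

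In an F1 hybrid every autosomal gene is present as a copy from each strain, and single-nucleotide polymorphisms (SNPs) in the transcript tell the copies apart. A gene with equal output of both copies has an AI of 0.5. AI near 0 or 1 is known for imprinted genes, which use the copy of only 1 parent, for strain differences in regulatory sequence, and for genes that 1 strain lacks. Reads can also be attributed to a gene from near-identical sequence elsewhere, such as processed pseudogenes (inserted copies of spliced transcripts) and nuclear copies of mitochondrial genes.

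Total allelic counts lay between 6138693 and 6702351 in the 18 kidney libraries and between 19213150 and 22241719 in the 4 first-run clone libraries. All 11 kidney marker genes examined had a level of at least 1 CPM (allelic counts scaled to a library total of 1e6) in every kidney library, while 0 of 11 did in Abl.1 and 3 of 11 in Abl.2. Of 7 pre-B cell markers, 6 passed that level in both Abl.1 libraries and 7 in both Abl.2 libraries.

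The columns were compared with known imprinted genes before use, and in kidney they ran opposite to their names. Cdkn1c, a cell-cycle inhibitor expressed from the mother's copy, had a pooled AI of 0.00236, 0.0150 and 0.00598 in the 3 sets. Peg3, Plagl1, Zrsr1, Sgce and Impact, which are expressed from the father's copy, had an AI between 0.953 and 1.00. Igf2r, maternally expressed, lay at 0.122, 0.143 and 0.235. Phlda2, Slc22a18 and Inpp5f, listed as imprinted, stayed between 0.444 and 0.499. In the clones 3 of these genes lay mostly on the other column than in kidney. Impact had 17 maternal-column counts of 288 in Abl.1 and 0 of 412 in Abl.2, Zrsr1 had 0 of 28 and 8 of 63, and Cdkn1c had 16 of 16 in Abl.2. Inpp5f was close to balance there too, with 344 of 652 in Abl.1 and 453 of 1037 in Abl.2, and Slc22a18 had 12 of 21 in Abl.1. The columns are therefore called by their names here and not read as parents. Whether a column holds the same parent in kidney and clones was not tested, so that comparisons between them are of columns only. The study's methods give 129S1 as the strain of the maternal reference allele.

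The sequences below show how closely 3 of the 84 genes match another gene, since this bears on which locus a read came from. All are from GENCODE M21 transcripts on GRCm38, written 5′ to 3′, and capitals mark the bases that differ within a pair. Gm13340, an unprocessed pseudogene at chr2:22588103-22589647 on the minus strand, aligned over 1545 bases to the mitochondrial gene mt-Co1 with 37 mismatches (97.6% identity). Bases 1174 to 1293 of both transcripts hold 6 of these.
Gm13340: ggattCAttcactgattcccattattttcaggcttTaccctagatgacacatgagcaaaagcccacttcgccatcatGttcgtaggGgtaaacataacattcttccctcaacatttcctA
mt-Co1: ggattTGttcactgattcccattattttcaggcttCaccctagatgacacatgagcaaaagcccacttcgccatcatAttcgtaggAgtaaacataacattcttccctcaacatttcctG

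Gm10222, an unprocessed pseudogene at chr1:24612407-24612700 on the minus strand, matched mt-Nd4l over all of its 294 bases with 0 mismatches. Its first 120 bases are those of mt-Nd4l.
Gm10222: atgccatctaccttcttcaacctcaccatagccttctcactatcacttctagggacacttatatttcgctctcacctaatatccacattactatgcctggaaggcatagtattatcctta

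Lsm7, a protein-coding gene for a subunit of the Lsm ring that takes part in messenger RNA decay and splicing, lies at chr10:80852821-80855209 on the minus strand. Its best single alignment to the pseudogene Gm13182 on chromosome 2 covered 169 bases with 3 mismatches. Over all alignments, 27.8% of the 1129 bases of the Lsm7 transcript were shared with Gm13182. The 3 mismatches of the best alignment all lie in the first 120 bases of the coding sequence.
Lsm7: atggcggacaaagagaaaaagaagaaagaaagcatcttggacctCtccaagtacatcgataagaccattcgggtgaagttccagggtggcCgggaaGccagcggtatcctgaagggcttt
Gm13182: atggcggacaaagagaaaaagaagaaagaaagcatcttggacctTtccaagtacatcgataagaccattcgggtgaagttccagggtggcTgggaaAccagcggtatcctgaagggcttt

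Across the 84 genes the median pooled AI was 0.0179 in NEBNext_100ng, 0.0102 in SMARTseq_10ng and 0.00847 in SMARTseq_100pg, where the median of all 10086 genes was 0.501, 0.502 and 0.504. An AI of at most 0.01 was reached by 35, 42 and 48 of the 84 genes, and by 28 genes in all 3 sets. In 5 genes no maternal-column count was seen in any of the 18 libraries. These were Gm10222 with 109826 counts in all, Lsm7 with 6160, the pseudogene Gm12895 with 4076, Glo1 (glyoxalase 1, which detoxifies methylglyoxal) with 2148 and Dpy19l2 (a sperm head protein) with 790. A count of 0 allows an AI of up to 2.73e-05 for Gm10222 and up to 0.00380 for Dpy19l2. This takes 3 counts as the limit, treats counts as independent and covers counting error only. Counts are sums over SNPs, so that a read covering several SNPs of a gene is counted more than once.

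Depth set how sharply single libraries could be read. Pooled kidney counts were under 1000 for 27 genes, from 1000 up to 10000 for 46 and at or above 10000 for 11. In 49 genes AI was at most 0.1 in each of the 18 libraries, and in 11 genes some library exceeded 0.2. The highest single-library AI was 0.426, for Samd7, a retinal transcriptional repressor, in a SMARTseq_100pg library with 47 counts of that gene. Just inside the limit lay Itih2 (highest AI over the sets 0.0986), 4930526A20Rik (0.0984) and Samd7 (0.0972), and just outside it Mrps33, Cenps and Mbl2, each with 0.101.

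By number of counts, 5 nuclear copies of mitochondrial genes outweighed all the rest. Gm13340 (copy of mt-Co1, a subunit of cytochrome c oxidase) had 2565549 kidney counts, Gm13339 (mt-Nd2, a subunit of complex I) 1877116, Gm4076 (mt-Nd5) 1001182, Gm13341 (mt-Co2) 330475 and Gm10222 (mt-Nd4l) 109826. Pooled AI was 0.00183 for Gm13340, 0.000570 for Gm13339, 0.000575 for Gm4076 and 0.00443 for Gm13341. The 37 genes of the mitochondrial chromosome itself, named mt-, are listed in the tables with 0 counts in every library.

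Together these 5 genes held 7.11% ± 0.198 (SD, n = 6) of all allelic counts in NEBNext_100ng, 4.19% ± 0.0522 in SMARTseq_10ng and 3.97% ± 0.0398 in SMARTseq_100pg. The other 79 genes held 0.256% ± 0.00411, 0.283% ± 0.00266 and 0.264% ± 0.00454. The maternal column held 46.7% ± 0.0559 of all counts in NEBNext_100ng, 48.1% ± 0.0567 in SMARTseq_10ng and 48.2% ± 0.0753 in SMARTseq_100pg. Without the 5 copies it held 50.3%, 50.2% and 50.2%, so that the whole-library ratio was close to equality once these 5 genes were left out. In the clones they held 0.0126% of counts in Abl.1 and 0.00920% in Abl.2 (n = 2 each).

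**Figure D1:**
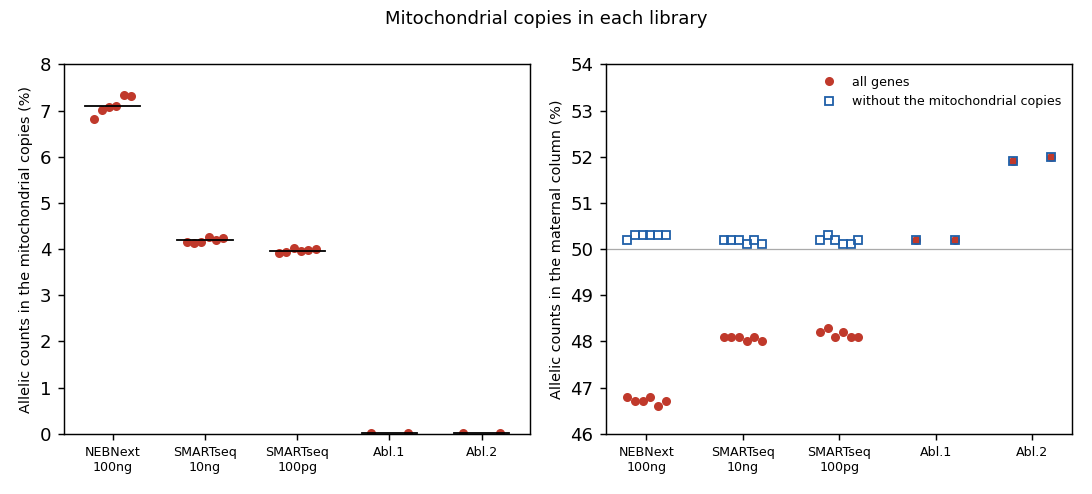
Left, share of all allelic counts (%) in the 5 nuclear copies of mitochondrial genes in each library, with the mean of each set as a line. Right, share of all allelic counts in the maternal column (%), for all genes (circles) and without these 5 genes (squares). The kidney libraries move from 46.6 to 48.3% up to between 50.1 and 50.3% when the copies are left out, and the clone libraries stay in place.

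Among the protein-coding genes, Inmt (an N-methyltransferase of indolamines) had the most counts. Its level was 269 to 301 CPM (median 292) in NEBNext_100ng, 478 to 542 (508) in SMARTseq_10ng and 279 to 356 (298) in SMARTseq_100pg, and its single-library AI lay between 0.0382 and 0.0672. Inmt was thus never at 0, and its maternal-column counts added up to 2224 of 42505. Psmb5, the chymotrypsin-like proteasome subunit, had 43 of 21730 and Serpina3b, a serine protease inhibitor of the antichymotrypsin family, 13 of 16224. Both stayed at or below 0.00761 in every library.

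Pzp, a plasma alpha-macroglobulin, had an AI of 0.00269, 0.00652 and 0.0144 in the 3 sets. Its library values lay between 0.000847 and 0.00574 in NEBNext_100ng and between 0.00454 and 0.0290 in SMARTseq_100pg, which overlap. Ahcy, which hydrolyses S-adenosylhomocysteine, had 0.0393, 0.0396 and 0.0297. Marc1, a mitochondrial amidoxime-reducing enzyme, had 0.0646, 0.0440 and 0.0428, with a spread from 0.00248 to 0.0988 among the SMARTseq_100pg libraries. The non-coding gene Gm10874 (0.00155 over all kidney libraries), the pseudogene Gm13498 (0.0210), the fibrillar collagen gene Col5a2 (0.0289) and the cell-adhesion gene Ceacam2 (0.0146) complete the 15 genes with most counts.

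Apart from the symbols left out, the choice did not use annotation or sequence. Both differed in make-up between the 84 genes and the other counted genes, which include the symbols left out. Pseudogenes made up 23 of 84 genes (27.4%) against 88 of 10002 other genes (0.880%). At least 50% of the transcript was shared with a gene elsewhere at 95% identity or more in 33 of 83 genes (39.8%) against 252 of 9948 (2.53%). Among protein-coding genes alone these were 13 of 57 (22.8%) against 201 of 9688 (2.07%). Predicted genes, with symbols that start with Gm, were 21 of the 84 and 156 of all 10086 (1.55%). These are counts without a test.

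A similar make-up was seen in the opposite set. Of 82 genes with an AI of at least 0.9 in all 3 sets, 19 (23.2%) were pseudogenes, and 21 of 78 (26.9%) shared at least 50% of their transcript, but 0 of 82 were copies of mitochondrial genes.

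**Figure D2:**
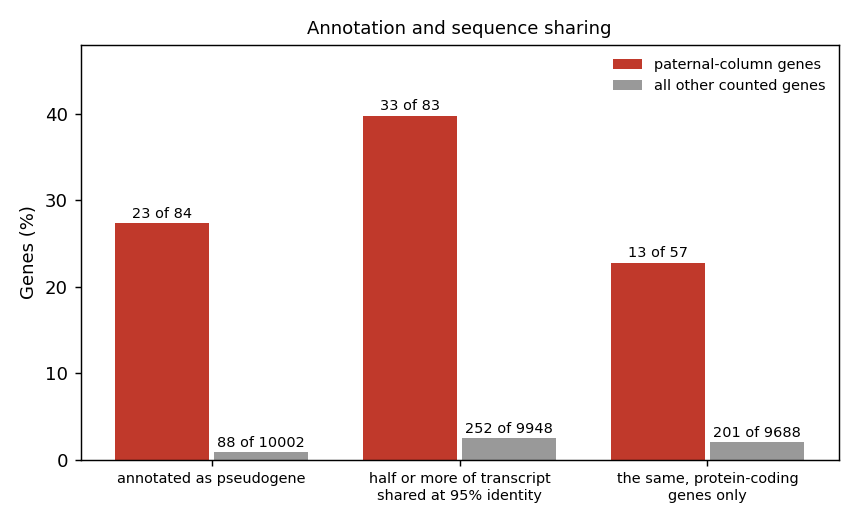
Share of genes (%) annotated as pseudogenes, and with at least 50% of their transcript shared with another gene at 95% identity, for the 84 paternal-column genes (red) and all other counted genes (grey). Numbers above the bars are genes of genes examined, and the red bars reach 27.4, 39.8 and 22.8% against 0.880, 2.53 and 2.07%.

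The partner of a shared transcript was often a processed copy on another chromosome. Timm23, a subunit of the inner-membrane import channel of mitochondria, shared 95.6% of its transcript with Gm10273 on chromosome 10, with 1 mismatch in 1121 bases. Ahcy shared 81.9% with Gm4737 on chromosome 16 (6 mismatches in 2083 bases), Psmb5 88.4% with Gm3375 on chromosome 7, and Oser1, an oxidative-stress-responsive protein, 51.5% with Gm12226 on chromosome 11. Tom1, an endosomal sorting protein, matched Gm5884 on chromosome 6 over 1479 bases with 0 mismatches. In the other direction, the pseudogenes Gm9755, Gm6223, Ndufab1-ps and Gm13680 are copies of the expressed genes Tufm, Tmem41b, Ndufab1 and Rps4x.

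Gene duplicates lying close by formed a further group. Lyz1, a lysozyme, shared its whole transcript with Lyz2 at 95.8% identity on the same chromosome. Tgtp1, an interferon-inducible GTPase, differed from Tgtp2 by 6 mismatches in 2811 bases. Gstp2 (glutathione transfer), Ceacam2, Ugt2b38 (glucuronidation) and Slc22a27 (organic anion transport) were paired with Gstp1, Ceacam1, Ugt2b5 and Slc22a29. The authors kept only uniquely aligned reads. Uniqueness was judged on a pseudogenome of each strain, which is the reference genome with that strain's SNPs, but not its indels, put in. How reads of such pairs were divided between the copies was not tested, and the levels and AI of these genes are uncertain to that extent.

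By contrast, 50 of the 83 genes with a transcript shared less than 50% of it. Inmt, Pzp, Serpina3b, Marc1, Col5a2, Hrg (histidine-rich glycoprotein of plasma), Tm4sf5 and A2m (alpha-2-macroglobulin) had no match at 95% identity.

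Genes next to the 84 were mostly balanced. Of 83 genes with a position, 81 had another counted gene within 500 kb. The median AI of these neighbours was 0.498 over the 81 genes, lay between 0.343 and 0.652, and was from 0.4 to 0.6 for 78 of them. Autosomes each held between 0 and 11 of the 84 genes. On chromosome 2 these were 11 of 774 counted genes (1.42%), on chromosome 1 10 of 606 (1.65%) and on chromosome 18 0 of 270. By share chromosome 1 was highest, followed by chromosome 12 with 6 of 367 (1.63%).

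**Figure D3:**
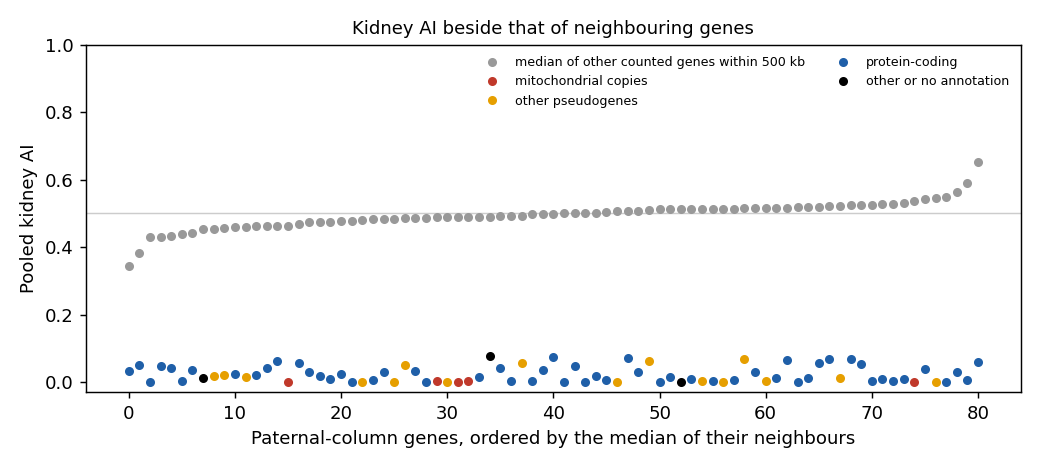
Pooled kidney AI of 81 paternal-column genes (coloured by annotation) and the median AI of the other counted genes within 500 kb of each (grey), ordered by that median. Grey points run from 0.343 to 0.652 around 0.5, and all coloured points are below 0.1.

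In 7 places, 17 of the genes lay within 1 Mb of each other. On chromosome 1 the adjacent aldehyde oxidases Aox1 (chr1:58029931-58106413) and Aox3 (chr1:58113130-58200698) and the pseudogene Cbx3-ps7 lay within a span where 15 other counted genes had a median AI of 0.517 and none was under 0.396. Aox1 had a pooled AI of 0.0145, 0.0227 and 0.00267 and Aox3 of 0.0799, 0.0784 and 0.0226. On chromosome 11, Asgr1 (the asialoglycoprotein receptor), Alox15 (a lipoxygenase) and Tm4sf5 (a tetraspan membrane protein) lay among 40 others with a median of 0.514 and a range of 0.253 to 0.912.

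The 3 mitochondrial copies Gm13341, Gm13340 and Gm13339 lay side by side at chr2:22587291-22590533, and the 3 other counted genes nearby had a median AI of 0.491 and a lowest of 0.458. The remaining places were pairs. Col19a1 (a collagen) with Gm10222, Ahcy with the antisense gene Gm14257 were surrounded by genes with a median AI of 0.462 and 0.506. Gm12185 lay next to Tgtp1, and Gm8893 next to Serpina3b.

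Total counts, maternal plus paternal, were then compared between kits and between inputs, a measure that the choice did not use beyond its minimum of 100. The tests were edgeR's quasi-likelihood test over all genes with Benjamini-Hochberg adjustment at 0.05, and their p-values measure the spread between libraries of the same RNA. In SMARTseq_10ng against NEBNext_100ng, 42 of the 84 genes were higher and 24 lower, while 38.1% and 39.4% of all 11995 genes tested were. The median log2 fold change was 0.41 for the 84 genes and -0.04 for all genes. With library totals in place of TMM scaling these medians were 0.05 and -0.40, and 33 genes were higher and 36 lower. Higher calls then made up 47.8% of the calls among the 84 genes in place of 63.6%, and 34.8% among all genes in place of 49.1%.

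The 7 proteins of mitochondria, RNA processing and protein handling were all higher with SMARTseq, with a median log2 fold change of 1.84, and all 7 were also higher with library totals. Psmb5 had 59.4 to 73.6 CPM (median 62.4) in NEBNext_100ng and 236 to 251 (240.4) in SMARTseq_10ng, ranges that do not overlap. Its log2 fold change was 2.28 (SE 0.05, adjusted p = 4.71e-24). Timm23, Lsm5, Lsm7, Mrpl23, Sec61g and Atp5g2 rose by between 0.97 and 2.12 on the same scale.

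Of 13 metabolic enzymes, 9 were higher, 1 lower and 3 passed in neither direction. Glo1 went from 3.13 to 6.75 CPM (median 4.70) to 22.0 to 28.9 (22.5), with a log2 fold change of 2.69 (SE 0.16, adjusted p = 7.60e-15). Inmt was higher by 1.17 (SE 0.04, adjusted p = 6.15e-21). Aox1, the only enzyme called lower with TMM scaling, fell by 0.78. With library totals 8 of the 13 enzymes were higher and 4 lower, so that this split depends on the scaling.

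Of 6 plasma proteins, 2 were higher and 4 lower, and with library totals 1 was higher and 4 lower. Pzp had 338 to 384 CPM (median 363) in NEBNext_100ng and 133 to 149 (139) in SMARTseq_10ng, and its log2 fold change was -1.01 (SE 0.04, adjusted p = 8.16e-18). Hrg, A2m and Itih2 were also lower, and Apoh and Serpina3b higher.

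The largest rises over all 84 genes were in Ndufab1-ps (log2 fold change 2.92, SE 0.13, adjusted p = 1.19e-17), Glo1, the neural cell-adhesion gene Cntn5 (2.44, SE 0.17, adjusted p = 5.20e-13), Psmb5 and Gm12895. Gm12895 went from 9.70 to 23.1 CPM (median 20.9) to 62.6 to 78.4 (72.8), a log2 fold change of 2.25 (SE 0.12, adjusted p = 1.54e-15). In these 5 genes the 2 kits did not overlap in any library, which is a description only, since the genes were picked for the size of this change.

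The largest falls were in Gm10222, Ak3l2-ps, Gm4076, Gm13680 and Samd7. Gm10222 went from 1949.8 to 2224 CPM (median 2037) to 431 to 449 (443), a log2 fold change of -1.86 (SE 0.03, adjusted p = 7.41e-27). Gm4076 was lower by 1.10 units (log2 fold change -1.10, SE 0.02), and Gm13340 and Gm13341 fell by 0.54 and 0.32. Gm13339, which comes from the same cluster on chromosome 2, had a log2 fold change of 0.24 with TMM scaling and of -0.12 with library totals, so that its direction depends on the scaling. Samd7 had 8.03 to 22.7 CPM in NEBNext_100ng and 3.91 to 8.80 in SMARTseq_10ng, ranges that overlap (log2 fold change -1.05, SE 0.23, adjusted p = 0.000177).

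**Figure D4:**
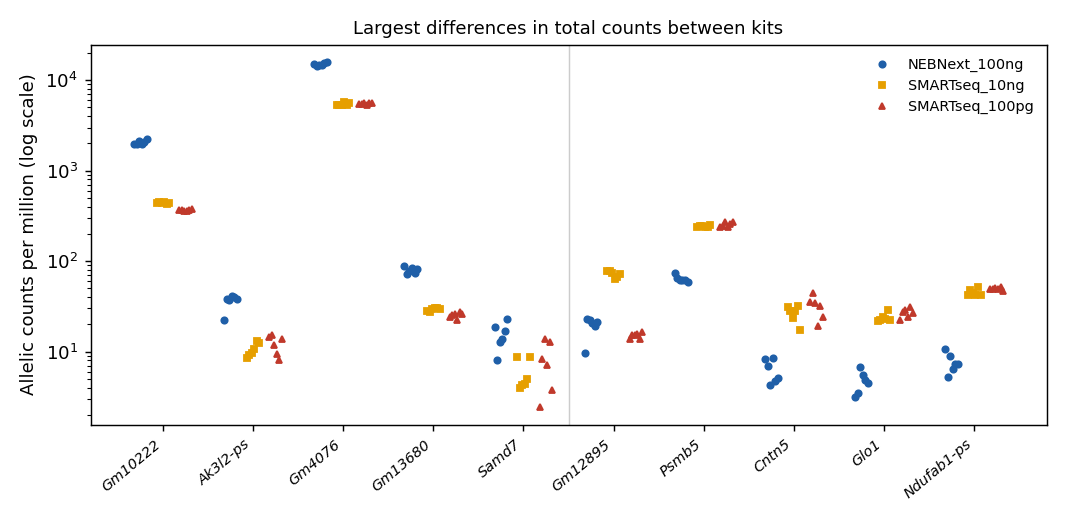
Total allelic counts as CPM (log axis) in each of the 18 kidney libraries for the 5 genes with the largest fall (left of the line) and the 5 with the largest rise (right) in SMARTseq_10ng against NEBNext_100ng. The 3 sets of 6 libraries are separate in colour and shape, and the gap between the inputs is widest for Gm12895, with 62.6 to 78.4 in SMARTseq_10ng and 13.9 to 16.5 in SMARTseq_100pg. The inputs also do not overlap for Gm10222 and Gm13680, but Gm13680 was not called between inputs (adjusted p = 0.104, edgeR quasi-likelihood test).

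Between inputs of the same kit, few genes differed. In SMARTseq_100pg against SMARTseq_10ng, 1 of the 84 genes was higher and 7 lower, where 8.80% and 7.02% of all 11722 genes tested were. Leaving out SMARTseq_100pg replicate 2 or replicate 3 gave 2 higher genes. The median log2 fold change was -0.02 for the 84 genes and 0.00 for all genes. Gm12895, a processed pseudogene identical over 224 bases to its neighbour Gm12896 on chromosome 4, fell most, to 13.9 to 16.5 CPM (median 15.3), a log2 fold change of -2.25 (SE 0.09, adjusted p = 1.25e-11).

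Inmt fell by 0.74 (SE 0.05, adjusted p = 4.25e-09), and the pseudogene Gm3608, a copy of Capza1, fell by 0.68 (SE 0.18, adjusted p = 0.0128). The other 4 lower genes were mitochondrial copies, of which Gm10222 fell by 0.27, Gm13341 by 0.15 and Gm13339 and Gm13340 by 0.09 each. Hrg was the higher gene, at 38.8 to 44.1 CPM (median 42.5) with 10 ng and 51.6 to 78.3 (63.6) with 100 pg (log2 fold change 0.62, SE 0.09, adjusted p = 8.44e-05).

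The clones are samples that the choice did not use, and they show whether these genes favour the same column in another cell type. In 32 of the 84 genes neither clone had a count, and 40 had at least 10 counts in each library of Abl.1 and as many in Abl.2. Counted in neither clone were, among others, 7 of 13 metabolic enzymes, 3 of 6 plasma proteins and 2 of 3 transporters. The same share was not computed over all counted kidney genes, so that these numbers do not set the 84 genes apart. In bulk RNA, fewer cells of a type and less RNA per cell cannot be told apart, and here the tissue differs as well.

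AI in the clones was tested against 0.5 by the proportional test on counts corrected for overdispersion between replicate libraries (QCC, 2.53 in Abl.1 and 2.16 in Abl.2), with Bonferroni adjustment over all genes. With 2 libraries of 1 clone in each line, its p-values too measure only the spread between libraries. In Abl.1, 23 of 40 genes were below 0.5 and 4 above, where 11.8% and 10.8% of all 11196 genes tested were. In Abl.2, 24 of 40 were below and 4 above, where 14.8% and 15.1% of 11228 were. An AI of at most 0.1 was kept by 15 of 40 genes in each clone, against 7.76% and 7.64% of all genes. The median AI of these genes was 0.213 in Abl.1 and 0.176 in Abl.2.

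With Abl.1 replicate 2 alone, 15 genes were called below 0.5 and 2 above in Abl.1, and with either Abl.2 library alone 17 were below and 1 or 2 above in Abl.2. Over the 37 genes tested in both clones, 21 were below 0.5 and 3 above it in both.

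Among these 37 genes, 12 kept an AI of at most 0.1 in both clones. They were Ahcy, Cbx3-ps7, E030042O20Rik, Glo1, Gm10874, Gm12355, Gm13498, Gm13680, Gm1818, Gm6223, Gm9755 and Lyz1. Ahcy had 0.0155 and 0.0286 in the 2 Abl.1 libraries and 0.0383 and 0.0389 in those of Abl.2, against 0.0366 in kidney. Pooled over libraries this was 0.0224 (95% interval 0.0131 to 0.0381, adjusted p = 1.50e-111, proportional test) and 0.0386 (0.0248 to 0.0597). Gm10874 had 0.00175 and 0.00226 from 2862 and 1768 counts, and Gm13498 0.0557 and 0.0588. Glo1, without a maternal-column count in kidney, had 8 of 359 in Abl.1 and 6 of 142 in Abl.2.

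A second group of 9 genes lay between 0.1 and 0.4 in both clones. Psmb5 had 0.297 and 0.333 in the Abl.1 libraries and 0.313 and 0.311 in Abl.2, pooled 0.316 (0.304 to 0.329) and 0.312 (0.299 to 0.324). These rest on 31992 and 24605 counts and are far from its kidney value of 0.00198. Oser1 was at 0.291 and 0.305, Gm3608 at 0.228 and 0.201, Timm23 at 0.140 and 0.185, and Tgtp1 at 0.145 and 0.165. Psmb5, Oser1, Timm23 and Tgtp1 had kidney values of 0.00198, 0.00666, 0.000232 and 0.0487. In Psmb5, Timm23, Oser1, Tgtp1 and Gm3608 more than 50% of the transcript is shared with another gene. Over all of the 84 genes tested in a clone, an AI of at most 0.1 was seen in 11 of 26 genes with 50% or more of the transcript shared and in 4 of 14 others in Abl.1, and in 9 of 26 and 6 of 14 in Abl.2.

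Mcm6, a subunit of the replicative helicase, and Atp5g2, a subunit c gene of ATP synthase, lay between 0.4 and 0.6 in both clones. Mcm6 had 0.488 and 0.498 in Abl.1 and 0.488 and 0.509 in Abl.2, pooled 0.494 (0.479 to 0.509) and 0.499 (0.486 to 0.511), from 26307 and 27814 counts. In kidney, with 1966 counts, it had 0.0589, 0.0609 and 0.0648. Mcm6 was therefore at or near equality in the clones and near 0.06 in kidney. In the comparison of annotated transcripts, 4.18% of its transcript matched another gene. The cause of the difference between kidney and clones was not tested. Atp5g2 had 0.409 and 0.412 and was called below 0.5 in both, against 0.00120 in kidney. With 1 Abl.1 library left out it was no longer called in Abl.1 (0.408 and 0.410), and without Abl.2 replicate 2 it was not called in Abl.2 (0.444).

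Of 5 genes above 0.6 in both clones, 4 were mitochondrial copies. Gm13340 had 0.629 and 0.660 in the Abl.1 libraries and 0.648 in both Abl.2 libraries, with adjusted p = 2.05e-05 and 5.57e-08 by the proportional test, and was not called with either Abl.1 library alone or without Abl.2 replicate 1. Gm13339 had 0.787 and 0.765, and Gm13341 0.787 and 0.749, where Gm13341 was not called without Abl.1 replicate 1 or with either Abl.2 library alone. Gm10222, with no maternal-column count in kidney, had no paternal-column count in the clones, with 102 of 102 and 55 of 55 in the maternal column. At that depth it did not pass the test (adjusted p = 0.727 in Abl.1 by the proportional test). It was called above 0.5 in 3 of 6 other settings in Abl.1 and in 3 of 8 in Abl.2. Gm4076, copied from mt-Nd5, had 0.0874 and 0.167 from 103 and 36 counts, also without passing. It was called below 0.5 in 3 of 6 other settings in Abl.1 and in 0 of 7 in Abl.2. Thus 3 of the 5 copies, all low in kidney, were called above 0.5 in both clones, while 12 other genes kept an AI of at most 0.1 in both. The difference between kidney and clones was itself not tested, and a column may not hold the same parent in both.

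The fifth gene above 0.6 was Tubb4b-ps1, a pseudogene of the tubulin gene Tubb4b, with 0.647 and 0.653 from 1312 and 1101 counts. It was called in Abl.2 and not in Abl.1, but these calls depend on the setting. In Abl.2 it was not called with either library alone or in the second run, and in Abl.1 it was called without QCC, with Benjamini-Hochberg adjustment and with edgeR. The clones themselves differed by 0.00594 (adjusted p = 1.00, proportional test).

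**Figure D5:**
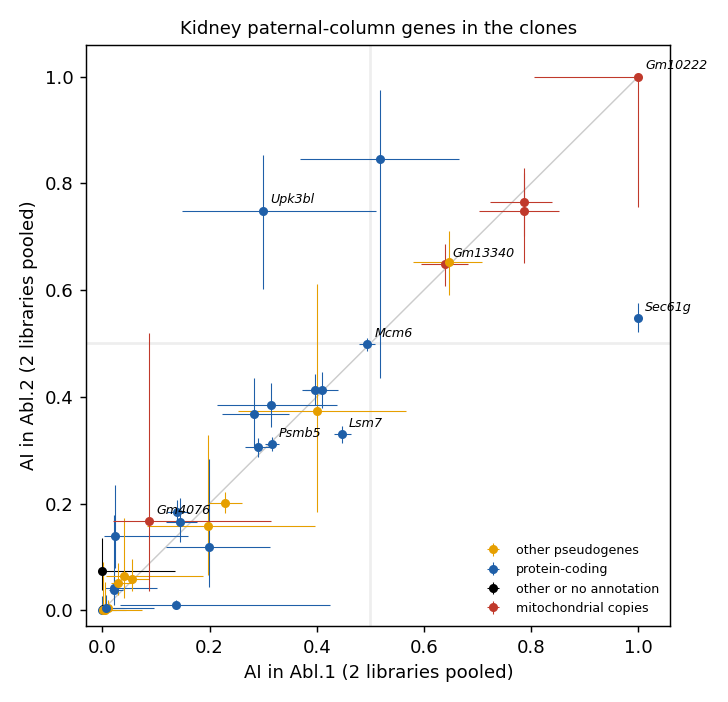
AI in Abl.1 (horizontal) and Abl.2 (vertical) of the 37 kidney paternal-column genes with at least 10 counts in each of 4 libraries, coloured by annotation, with 95% intervals from counts corrected by QCC. Points gather near the origin (12 genes at most 0.1 on both axes), 4 mitochondrial copies lie above 0.6 on both, and Sec61g lies far from the diagonal.

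The clones were compared directly by the proportional test of the difference, again with QCC and Bonferroni adjustment. Of 37 genes, 2 differed, where 18.9% of all 10068 genes tested did. Sec61g, the gamma subunit of the protein-conducting channel of the endoplasmic reticulum, had 1.000 and 0.999 in the Abl.1 libraries and 0.540 and 0.558 in those of Abl.2. This is a difference of -0.451 in Abl.2 minus Abl.1 (adjusted p = 1.78e-214). Sec61g was thus on the paternal column in kidney (0.0497), almost only on the maternal column in Abl.1, and on both in Abl.2. Its chromosome, 11, had a median AI of 0.594 over 1006 genes in Abl.1 and of 0.506 over 969 genes in Abl.2. A median over a whole chromosome does not give the AI of the genes near Sec61g.

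Lsm7 had 0.441 and 0.456 in Abl.1 and 0.320 and 0.342 in Abl.2, with a difference of -0.118 (adjusted p = 2.08e-21). Its chromosome, 10, had a median AI of 0.506 in Abl.1 (527 genes) and 0.338 in Abl.2 (537 genes). Whether these shifts in the chromosome medians are regional, and their part in the values of Lsm7 and Sec61g, was not tested. Both clones differ from kidney, where Lsm7 had no maternal-column count in 6160. Mrpl23, a mitochondrial ribosomal protein, had 0.396 and 0.413 in the clones against 0.00185 in kidney, with a difference between clones of 0.0171 that did not pass. Gm12185, a predicted gene next to Tgtp1, had 10 maternal-column counts of 73 in Abl.1 and 49 of 4700 in Abl.2. Its difference of -0.127 did not pass with Bonferroni adjustment (adjusted p = 0.851), but was called without QCC, with Benjamini-Hochberg adjustment, with edgeR and without Abl.2 replicate 1.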

How the data were processed

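RNA-seq allelic counts were used from 18 kidney libraries and 4 clone libraries, and a second run of both Abl.2 libraries served as an alternative. The deposited values are raw whole-number counts per gene for both alleles. The authors aligned reads with STAR 2.5.4a to GRCm38 pseudogenomes of both strains, kept unique alignments, sampled libraries to equal size and summed SNP counts over merged exons (Ensembl release 68). The deposited AI tables hold fractions computed by the authors and were not used.

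Samples were grouped by title, and 84 genes and all lists were chosen with earlier results of these data known. Genes named with values are those with the most kidney or clone counts (15 each), the 5 largest called changes in each direction, those nearest the AI limit, neighbours within 1 Mb (5 places) and listed imprinted genes. Others named serve as examples of a count and were picked after their values were seen. Role groups were assigned by hand.

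Totals were tested with edgeR 4.0.16 (TMM, mean of at least 10 counts, Benjamini-Hochberg at 0.05). Clone AI used the proportional test on counts divided by the square of QCC (at least 10 counts per library, Bonferroni at 0.05), and 95% Wilson intervals on the same scale. Longest GENCODE M21 transcripts were compared with BLAST+ 2.17.0. DESeq2 1.42.0 and other settings were alternatives. Tests were checked on simulated data. Replicate numbers did not pair kidney libraries (correlations of deviations from -0.0174 to 0.0260). No replicates were duplicates. Intervals cover counting error, widened by QCC for the spread between the libraries of a clone, and no other variation.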

Additional observations from a re-analysis of the deposited data

Results flagged for a closer look

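Values of the 15 genes with most kidney counts and of the shares of counts were examined for single libraries that stand apart from the other 5 of their set. For normally distributed values chance flags about 1 in 20 sets. That rate does not hold for AI values mostly at 0, where a single maternal-column count is enough for a flag. Of 96 sets, 7 were marked. In SMARTseq_100pg, 1 library had 1999 CPM of Gm13341 where the others had 2208 to 2306, and 1 had 356 CPM of Inmt against 279 to 303. In the same set an AI of 0.0885 for Col5a2 stood against 0.00301 to 0.0343, and of 0.0444 for Ceacam2 against 0.00378 to 0.0173. Single libraries had an AI of 0.00188 for Serpina3b in NEBNext_100ng and of 0.00296 for Gm10874 in SMARTseq_10ng where the other libraries were at 0. Each of these values rests on 1 maternal-column count. For Serpina3b in SMARTseq_10ng 1 library had an AI of 0.00296 where the highest other was 0.00107.

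The clones differed in AI, by the proportional test of the difference, in Lsm7 (Abl.2 minus Abl.1 -0.118) and in Sec61g (-0.451). In both genes every library of Abl.2 was below every library of Abl.1.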

How the results depend on the processing

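The number of genes meeting the rule was 49 where the limit was set on every single library in place of pooled counts, and lay between 77 and 87 when any of the 18 kidney libraries was left out. Other AI and count limits kept it within 1.5 times of 84. For total counts in SMARTseq_10ng against NEBNext_100ng, every alternative kept the counts of higher and lower genes within 1.5 times, between 41 and 43 higher and between 23 and 26 lower when any library was left out. With library totals, 47.8% of called genes were higher, against 63.6%. In SMARTseq_100pg against SMARTseq_10ng, DESeq2 and the replicate block each gave 2 higher genes in place of 1, and leaving out a library gave 1 or 2 higher and 7 to 9 lower. In the fit with the replicate block, 42 were higher and 24 lower between kits, and for no pair of sets did every library correlate best with its own number.

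In the clones, dropping QCC, Benjamini-Hochberg adjustment and edgeR each gave 7 genes above 0.5 in Abl.2 in place of 4. With 1 library left out, 15 to 17 genes were below and 2 or 3 above 0.5 in Abl.1, and 17 were below and 1 or 2 above in Abl.2. The number differing between clones was 5 without QCC or with Benjamini-Hochberg adjustment, 6 with edgeR and 2 or 3 with a library left out. Lsm7 and Sec61g were among them under all of these settings. Below or above 0.5 turned over for 3 genes, none of them called, with 1 library left out, namely Gstp2 (0.462 without Abl.1 replicate 1 and 0.543 without replicate 2), Mansc4 (0.909 and 0 in the same order) and Mcm6 (0.509 without Abl.2 replicate 1 and 0.488 without replicate 2). Over all genes, 2531 were called in Abl.1, 3362 in Abl.2 and 1899 between clones. These numbers were 5753, 6124 and 3870 without QCC and 4861, 5995 and 3239 with Benjamini-Hochberg adjustment, 5070 in Abl.2 with edgeR and 1617 in Abl.1 without Abl.1 replicate 2. The causes were not tested. Depth limits the genes with few clone counts most, and the 2 libraries of a clone give a single estimate of QCC.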
